A study of Mus musculus with 6 samples.

Results

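Oxidative phosphorylation is carried out by 5 protein complexes of the inner mitochondrial membrane, and the genes described here encode their nuclear-encoded subunits. They were chosen by symbol from a gene table of mouse bone-marrow stem and progenitor cells: every row named Nduf, Sdha to Sdhd, Uqcr, Cyc1, Cox4 to Cox8 or Atp5 was taken, and a mean of at least 1 normalized count over the 6 libraries was required. The symbols matched 93 rows and 90 of them reached the minimum, out of 15662 genes tested from 23997 symbols in the table. Of the 90 genes, 36 were placed in complex I, 4 in complex II, 9 in complex III, 17 in complex IV and 15 in complex V, and the other 9 are assembly factors and related genes that share the symbols. The 3 rows under the minimum were Cox8b, with 1 read in all, and Cox7b2 and Cox8c, with 0 reads. Cox8b and Cox8c are the muscle and testis versions of a subunit whose widely used form is Cox8a.

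Complexes I and II pass electrons from NADH and succinate to ubiquinone, complex III passes them on to cytochrome c, and complex IV hands them to oxygen. Complexes I, III and IV pump protons across the membrane, and complex V, the ATP synthase, makes ATP from their return. Quiescent blood stem cells are known for relying on oxidative phosphorylation less than their dividing and differentiating progeny, and red cell precursors are known for a high mitochondrial demand during heme synthesis.

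The study compared cells sorted as Lin-Sca1+cKit+ (LSK; also called HSPCs) from C57BL/6 mice of 6 to 8 weeks, with 3 Wildtype and 3 Mirc11-/- libraries. Mirc11 is the locus on chromosome 8 that holds the genes of miR-23a, miR-27a and miR-24-2, and its deletion is the only stated difference between the groups. Each library was built from RNA of cells pooled from 3 to 4 mice, so a library is a pool and not an animal. The sample labels do not tell the 6 libraries apart by batch. Values are read counts multiplied by 1 constant for each library, called normalized counts here, and 1 read was worth 0.946 to 1.04 of them. Their totals still differed, from 15361002 in Mirc11-/- library 3 to 16127718 in Wildtype library 2. Between 15029379 and 17051541 reads per library lay in genes. All 3 miRNA genes were at 0 reads in every Mirc11-/- library, against 51 reads for Mir23a, 54 for Mir27a and 73 for Mir24-2 over the Wildtype libraries, as the labelled genotypes have it. Of the markers selected in the sort, Kit was at 8577 to 9416 normalized counts in Wildtype and 6644 to 9950 in Mirc11-/- libraries, and Ly6a, which encodes Sca1, at 444 to 683 and 374 to 534.

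No gene of the 90 passed the test between genotypes. With limma on log2(normalized count + 1) and Benjamini-Hochberg adjustment over all genes, 0 of 90 had an adjusted p under 0.05, where 0.0319% of all genes tested did so, and the adjusted p-values of the 90 ran from 0.597 to 0.999. At an unadjusted p under 0.05, 1 gene was lower in Mirc11-/- cells, where 4.09% of all genes were, and 0 were higher, where 4.15% of all genes were. Without Mirc11-/- library 3 these counts were 1 lower and 19 higher, again with 0 of 90 past the adjusted threshold. In that fit 303 genes of the whole table were called higher and 228 lower after adjustment. The shares of all genes at an unadjusted p were not counted there, so those above do not serve as a comparison. The count test of edgeR on the recovered reads called 0 of 90 (0.0255% of all genes) and DESeq2 called 0 of 90 (0.798% of all genes). At an unadjusted p under 0.05 edgeR had 1 gene lower and DESeq2 1 higher, with the shares over all genes not counted. For 82 of the 90 genes the 95% interval of the difference stayed within a 1.5-fold change in either direction, with a median standard error of 0.12 on the log2 scale. In the whole table limma called 1 gene higher and 4 lower, the miRNA gene Mir23a among the latter.

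The differences that were measured lay mostly on one side of 0. In 71 of the 90 genes the log2 fold change, Mirc11-/- minus Wildtype, was positive, where 50.5% of all genes tested had a positive value, and its median was 0.08 against 0.00 over all genes. Complex III was positive in 9 of 9 genes with a median of 0.11, complex V in 14 of 15 with 0.08, complex I in 27 of 36 with 0.08, complex II in 3 of 4 with 0.09 and complex IV in 11 of 17 with 0.05. Among assembly factors and related genes 7 of 9 were positive, with a median of 0.05. These differences were small beside the spread between libraries: their median size was 0.09 on the log2 scale, and the median SD within a genotype was 0.18 over the 90 genes. Single libraries set the median. It was 0.01 without Wildtype library 3, with 51 positive genes, 0.01 without Mirc11-/- library 1, with 48, 0.13 without Wildtype library 1, with 80, and 0.18 without Mirc11-/- library 3, with 79.

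**Figure D1:**
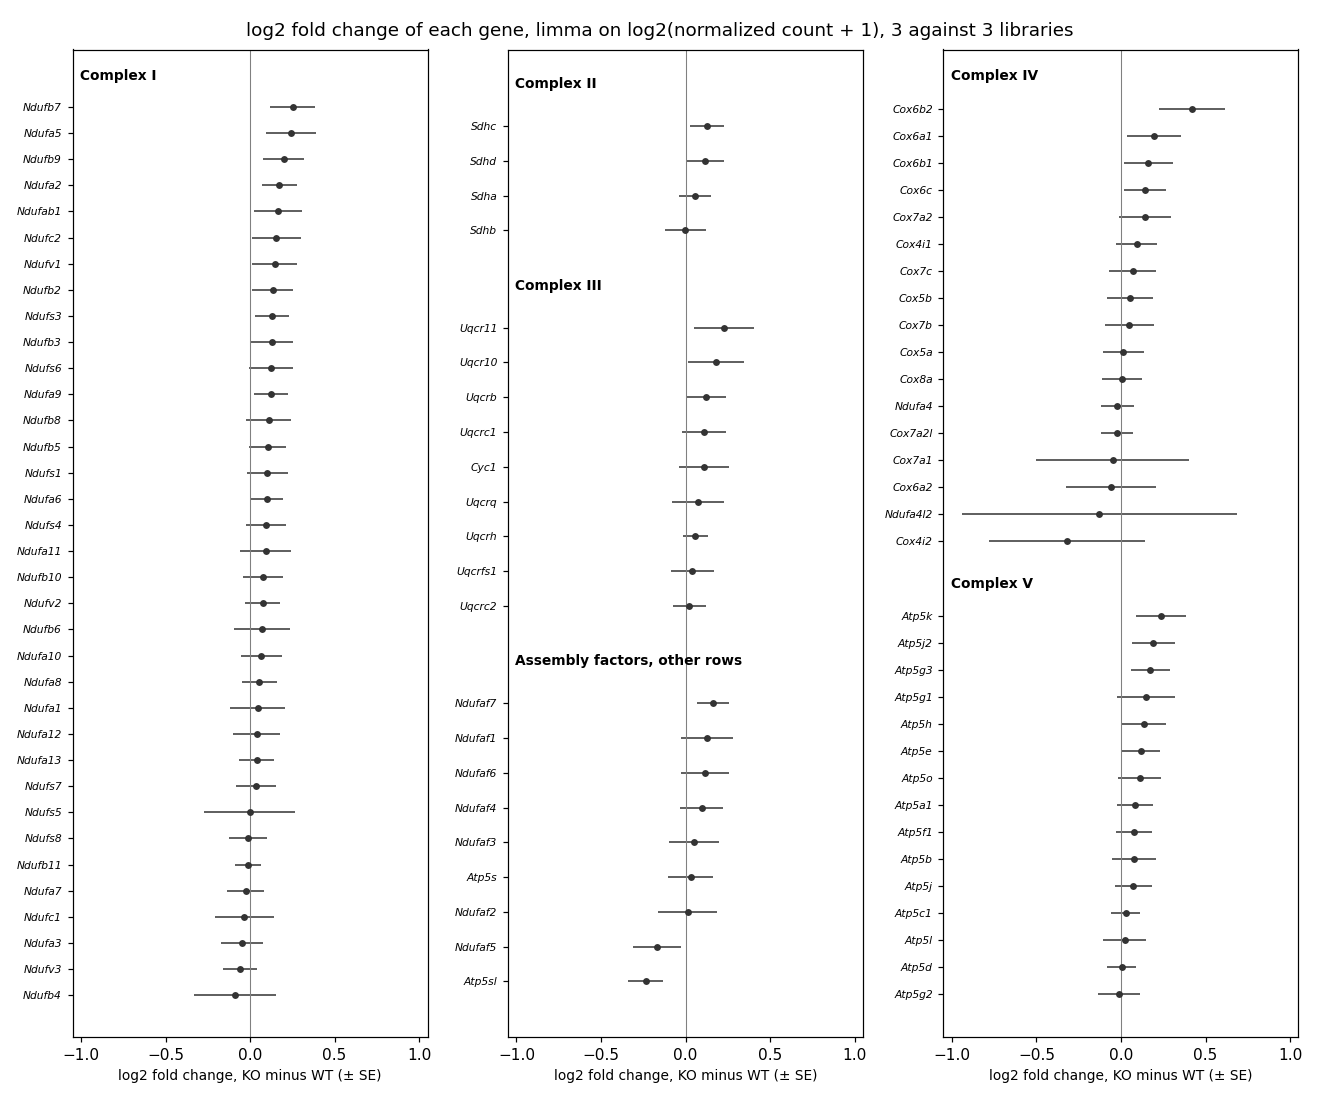
The log2 fold change of the genes (1 of the 90 is not shown; horizontal axis, Mirc11-/- minus Wildtype, fitted on log2(normalized count + 1)) with its standard error as a bar, grouped by complex. Most points lie slightly to the right of 0, Cox6b2 reaches 0.42, and the bars are widest for the low genes Ndufa4l2, Cox4i2 and Cox7a1.

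The genes moved together from library to library, within each genotype as well as between them. Taken as the difference of each gene from its own Wildtype mean on the log2 scale, the median over the 90 genes was 0.11 in Wildtype library 1, 0.04 in library 2 and -0.16 in library 3. In the Mirc11-/- libraries it was 0.24, 0.13 and -0.10. The Mirc11-/- library 3 therefore lay below the Wildtype libraries 1 and 2, and the genotypes overlapped. The median over all genes tested stayed between 0.00 and 0.01 in each library. Summed over the 90 genes, these transcripts made up 1.04%, 0.986% and 0.876% of all normalized counts in the Wildtype libraries and 1.13%, 1.07% and 0.928% in the Mirc11-/- libraries.

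Complexes I to V showed the same order of libraries within each genotype. Wildtype library 3 was the lowest of its genotype in 81 of 90 genes (37.0% of all genes tested had Wildtype libraries 1 and 2 above library 3), and Mirc11-/- library 3 was the lowest of its genotype in 74 of 90 (38.4% of all genes). Both of these libraries were below the remaining 4 in 66 of 90 genes, where 15.8% of all genes were. Mirc11-/- library 1 held the highest value of all 6 libraries in 54 genes, where it did in 25.5% of all genes. Complex III spanned the most within Mirc11-/- cells, from a median of -0.15 in library 3 to 0.31 in library 1, and the assembly factors and related genes the least, from -0.08 to 0.14.

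**Figure D2:**
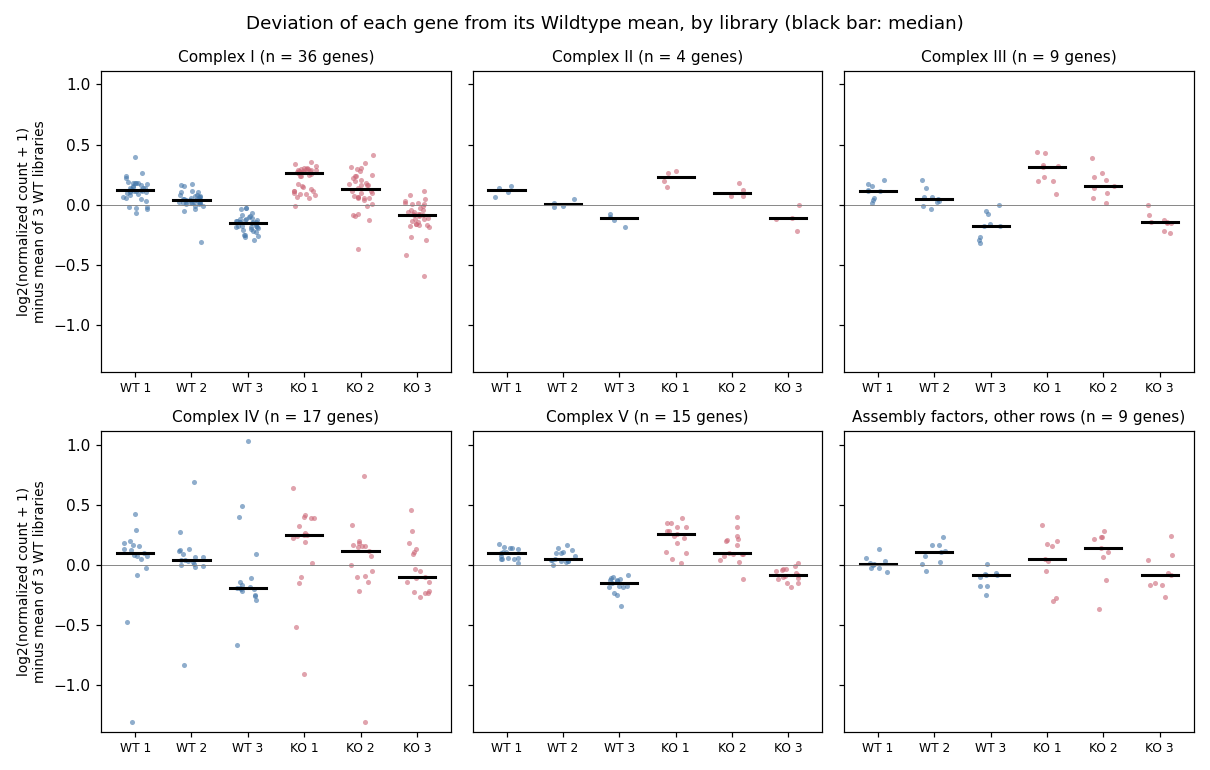
Each point is 1 gene in 1 library, as log2(normalized count + 1) minus the mean of the 3 Wildtype (WT) libraries for that gene, with 1 panel per complex; KO is Mirc11-/- and black bars are medians. In complexes I to V libraries WT 3 and KO 3 sit lowest and KO 1 highest, and the widely scattered points of complex IV are genes with low counts such as Ndufa4l2, Cox4i2 and Cox7a1.

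In complex I, the NADH dehydrogenase, the core subunits that carry electrons varied by library like the rest. Ndufv1, which holds the flavin that accepts electrons from NADH, was at 2559, 2382 and 1884 normalized counts in Wildtype libraries 1 to 3 and at 2816, 2527 and 2188 in Mirc11-/- libraries 1 to 3. Its log2 fold change was 0.15 (SE 0.13, limma adjusted p = 0.779). Ndufs1, an iron-sulfur subunit of the same arm, averaged 2282 ± 128 (SD, n = 3) in Wildtype and 2468 ± 404 in Mirc11-/- cells. The smallest p-values of the complex belonged to accessory subunits, which surround the catalytic core: Ndufb7, Ndufa2 and Ndufb9.

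Ndufb7 is also the gene of the set nearest to the deleted locus, since chr8:83566758-83571623 (GRCm38.p6) lies 0.637 Mb from Mir23a. It was at 1188, 1079 and 932 normalized counts in the Wildtype and 1361, 1409 and 1054 in the Mirc11-/- libraries. Mirc11-/- libraries 1 and 2 were above every Wildtype value and library 3 was within their range. The log2 fold change was 0.25 (SE 0.13, limma adjusted p = 0.633). The remaining genes of the set on that chromosome, Ndufa13 and Cox4i1, lie 14.3 and 36.5 Mb away and had log2 fold changes of 0.04 and 0.09. Ndufa2 averaged 883 ± 82.9 and 995 ± 74.6 and Ndufb9 1343 ± 173 and 1539 ± 170, with log2 fold changes of 0.17 (SE 0.10) and 0.20 (SE 0.12) and adjusted p-values in limma of 0.656 and 0.667.

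Complex II, succinate dehydrogenase, takes part in both the citric acid cycle and the respiratory chain. Sdha, its flavoprotein, was at 6651, 6435 and 6036 normalized counts in the Wildtype and 7321, 6710 and 5895 in the Mirc11-/- libraries, so the Mirc11-/- values enclosed the Wildtype ones. Its log2 fold change was 0.05 (SE 0.09, limma adjusted p = 0.895). Sdhb, the iron-sulfur subunit, differed least of the 4, with means of 1558 ± 172 and 1560 ± 203. The membrane anchors Sdhc and Sdhd had log2 fold changes of 0.13 (SE 0.10) and 0.12 (SE 0.11).

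In complex III, the cytochrome bc1 complex, the 3 smallest p-values belonged to small accessory subunits. Uqcr11 was at 846, 767 and 608 normalized counts in Wildtype and 994, 959 and 662 in Mirc11-/- libraries, with a difference of 0.23 on the log2 scale (SE 0.18, limma adjusted p = 0.738). The ranges overlapped through library 3 of the Mirc11-/- cells. Uqcr10 and Uqcrb, likewise small subunits outside the electron path, had log2 fold changes of 0.18 (SE 0.17) and 0.12 (SE 0.12). Cyc1, or cytochrome c1, was at 2714, 2382 and 2152 in Wildtype and 3028, 2817 and 2047 in Mirc11-/- libraries, Uqcrfs1, the Rieske iron-sulfur protein, averaged 1760 ± 187 and 1817 ± 271, and Uqcrc1, a core protein, 4448 ± 462 and 4825 ± 776.

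Complex IV, cytochrome c oxidase, has several subunits encoded by alternative genes that are used in different tissues, and the LSK libraries held mostly the widely used ones. Per kilobase of transcript, Cox4i1 made up 99.6% ± 0.163 (SD, n = 3) of the Cox4 pair in Wildtype and 99.7% ± 0.122 in Mirc11-/- cells, the rest being Cox4i2, known from lung and from hypoxia. Cox6a1 made up 95.3% ± 2.20 and 96.2% ± 1.38 of its pair with the muscle gene Cox6a2, and Cox7a2 97.4% ± 1.28 and 97.8% ± 1.18 of its pair with the muscle gene Cox7a1. Cox6a2 had a log2 fold change of -0.06 (SE 0.27). Cox4i2 was at 7.57 to 24.8, Cox7a1 at 8.93 to 23.1 and Ndufa4l2, the hypoxia-inducible relative of Ndufa4, at 0 to 4.05 normalized counts over the 6 libraries. At these levels the standard errors of the log2 fold change were 0.46, 0.45 and 0.81. The 95% intervals were -1.361 to 0.722, -1.072 to 0.973 and -1.971 to 1.715. Changes of 1.5-fold in either direction lay within them, so differences of that size and more could be missed in these 3 genes.

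Cox6b2 was the exception among the restricted forms. This gene, best known from testis, made up 14.5% ± 0.718 of the Cox6b pair per kilobase in Wildtype and 17.0% ± 2.61 in Mirc11-/- cells, beside the widely used Cox6b1. It was at 390, 318 and 260 normalized counts in the Wildtype and 425, 532 and 343 in the Mirc11-/- libraries, and the lowest Mirc11-/- value was between the Wildtype ones. The log2 fold change of 0.42 (SE 0.19, limma unadjusted p = 0.0596, adjusted p = 0.605) was the highest of the 90. In the annotation Cox6b2 lies at chr7:4751792-4753094 (GRCm38.p6), and no exon base of its transcript is shared with another gene. No transcript of another gene matched it at 95% identity over 50% of its length, and shorter matches were not counted.

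Of the remaining complex IV genes, Cox4i1 and Cox5a, both near the catalytic core, had means of 4703 ± 564 and 2422 ± 244 normalized counts in Wildtype and 5016 ± 638 and 2455 ± 361 in Mirc11-/- cells. Cox6a1, Cox6b1, Cox6c and Cox7a2 had log2 fold changes of 0.19, 0.16, 0.14 and 0.14, with standard errors of 0.12 to 0.16. The pattern between libraries ran the other way in Cox7a2l, which helps to join complexes III and IV into supercomplexes. It was at 1747, 1846 and 1971 in the Wildtype and 1726, 1731 and 2026 in the Mirc11-/- libraries, so that library 3 was the highest of both genotypes. Ndufa4, first described in complex I and now placed in complex IV, was at 2831, 2712 and 2246 and at 2621, 2490 and 2523, and Cox8a averaged 2376 ± 199 and 2395 ± 364.

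**Figure D3:**
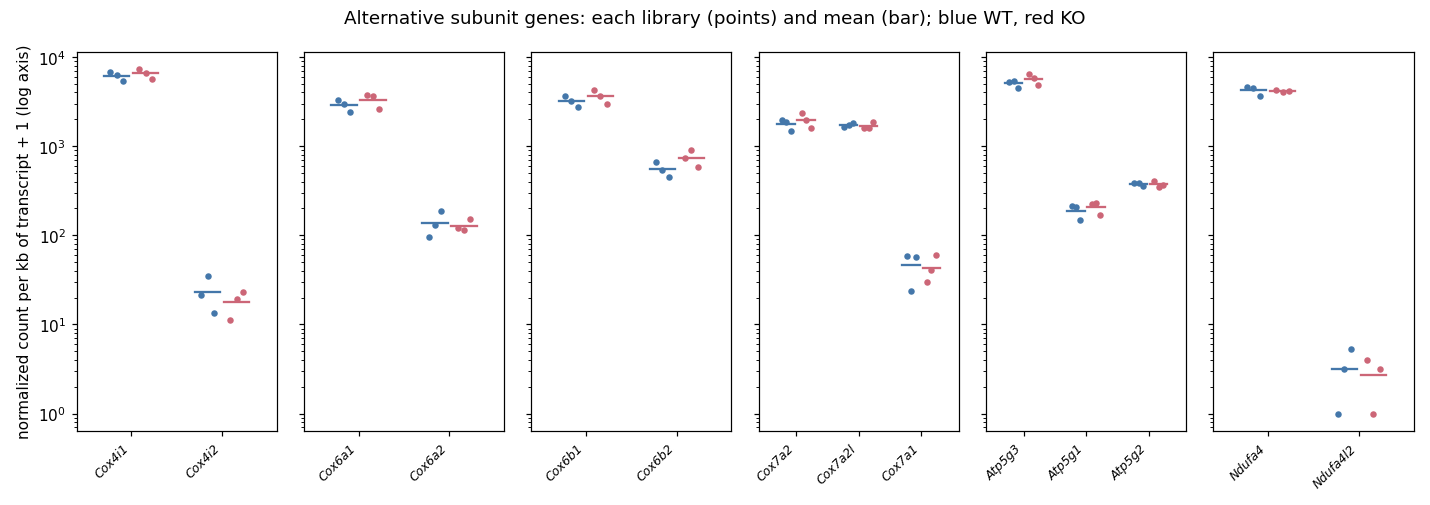
Normalized count per kilobase of transcript plus 1, on a log axis, for genes that encode alternative or related forms of a subunit: points are libraries, bars are means, blue is Wildtype (WT) and red is Mirc11-/- (KO). The widely used form exceeds the restricted form in every library, Cox6b2 stands closest to its partner among the complex IV pairs, and blue and red points overlap for each gene.

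Complex V held the most abundant transcripts of the set. Atp5b and Atp5a1, the beta and alpha subunits that form the catalytic head, were at 10491 ± 854 and 6639 ± 386 normalized counts per kilobase in Wildtype cells, ranks 1 and 2 of the 90, and together took 23.6% of the counts of the set in each genotype on average. Atp5b was at 21582, 20374 and 18345 normalized counts in the Wildtype and 24987, 21374 and 17661 in the Mirc11-/- libraries, again with the Mirc11-/- values on both sides of the Wildtype ones. Its log2 fold change was 0.08 (SE 0.13, limma adjusted p = 0.896), and that of Atp5a1 was 0.08 (SE 0.11). The smallest p-values belonged to membrane subunits. Atp5k, subunit e, averaged 612 ± 88.5 and 722 ± 111, Atp5g3 3657 ± 332 and 4138 ± 559 and Atp5j2, subunit f, 1792 ± 208 and 2054 ± 306, with adjusted p-values in limma of 0.673, 0.686 and 0.689.

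Atp5g1, Atp5g2 and Atp5g3 encode the same mature protein, the c subunit that builds the rotor ring. Atp5g3 made up 90.01% ± 0.167 (SD, n = 3) of the 3 genes per kilobase in Wildtype and 90.78% ± 0.518 in Mirc11-/- cells. The Mirc11-/- shares of 91.1%, 91.1% and 90.2% were above the Wildtype shares of 89.8%, 90.1% and 90.1%, and 3 libraries against 3 cannot go below a two-sided p of 0.1 in an exact permutation test. These shares depend on the transcript lengths taken, 4715 bases for Atp5g1 against 731 for Atp5g2 and 723 for Atp5g3. The RefSeq gene of Atp5g1, at chr11:96072793-96075694 (GRCm38.p6), is shorter than its length taken here, introns included. A shorter length for Atp5g1 would lower the share of Atp5g3, and whether the genotypes would still separate was not tested. Atp5g1 had a log2 fold change of 0.15. Atp5g2 averaged 273 ± 13.1 and 271 ± 20.6 normalized counts and was the 1 gene of complex V with a negative log2 fold change, at -0.01 (SE 0.12). Its transcript has 2 pseudogene copies at 95% identity or more, with which its reads may be shared.

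**Figure D4:**
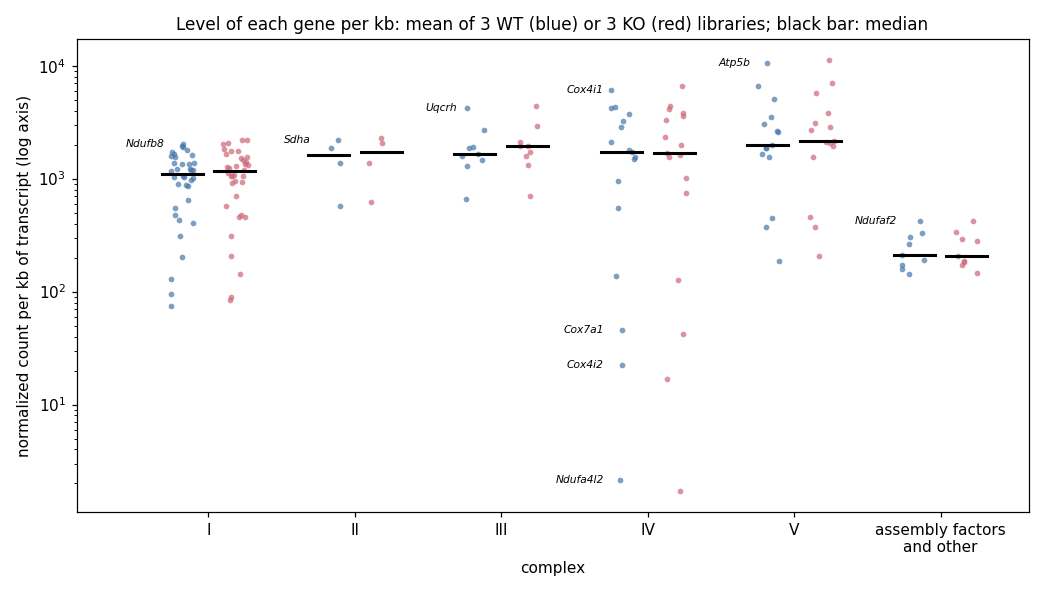
Mean normalized count per kilobase of transcript of each gene, on a log axis, by complex, for 3 Wildtype (blue) and 3 Mirc11-/- (red) libraries; black bars are medians. The Wildtype medians rise from 1107 in complex I to 1993 in complex V, assembly factors and related genes lie near 211, and the 2 genotypes show the same spread.

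The Wildtype medians by complex were 1107, 1623, 1664, 1723 and 1993 normalized counts per kilobase for complexes I to V and 211 for assembly factors and related genes. The Mirc11-/- medians were 1161, 1707, 1929, 1699 and 2150, and 206, with complex III above complex IV there. These levels depend on the transcript taken for the length, here the principal annotated one and the longest where several tied, and on reads shared between copies: 11 of the 90 genes have at least 1 copy at 95% identity over 50% of the transcript, 24 in all, of which 23 are annotated as pseudogenes. Atp5l, subunit g, has 9 such copies and was at 224 to 263 normalized counts in all 6 libraries, so its level is uncertain, as are those of Uqcrb and Atp5h with 3 copies each. Exons of 27 of the 90 genes overlap those of another gene, though none over 50% of its length, and no source used here states whether the counting used strand.

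The only gene with an unadjusted p under 0.05 was one of the related genes, Atp5sl. It is named Dmac2 in RefSeq (chr7:25619414-25625550, GRCm38.p6), has a symbol that resembles ATP synthase genes, and is known as an assembly factor of the membrane arm of complex I. It was at 812, 809 and 759 normalized counts in the Wildtype and 655, 617 and 756 in the Mirc11-/- libraries, so the highest Mirc11-/- value was just under the lowest Wildtype value. The log2 fold change was -0.23 (SE 0.10, limma unadjusted p = 0.0488, adjusted p = 0.597). It was 1 of 90 genes whose Mirc11-/- values all lay below the Wildtype values, where 6.53% of all genes tested did so.

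Ndufaf7, a methyltransferase of complex I assembly, was the 1 gene with all Mirc11-/- values above the Wildtype values, where 6.42% of all genes tested were. It was at 523, 534 and 535 normalized counts in the Wildtype and 598, 624 and 561 in the Mirc11-/- libraries, with a difference of 0.16 on the log2 scale (SE 0.09, limma adjusted p = 0.643). Ndufaf5, another complex I assembly factor, averaged 246 ± 28.5 and 219 ± 16.9, with a log2 fold change of -0.17 (SE 0.14). With Atp5sl, Atp5s, Ndufv3, Cox7a2l and the low genes Cox4i2, Cox6a2 and Cox7a1, it made up the 8 genes that were below their Wildtype mean in Mirc11-/- library 1, in which the other 82 were above it.

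Other genes of mitochondrial energy metabolism followed the same libraries. Of 14 genes of the citric acid cycle and pyruvate dehydrogenase, 10 had a positive log2 fold change (median 0.08), and their median deviations ran 0.07, 0.02 and -0.10 over the Wildtype and 0.22, 0.08 and -0.12 over the Mirc11-/- libraries. Mdh2, mitochondrial malate dehydrogenase, was at 4203, 4117 and 3641 in Wildtype and 4962, 4554 and 3647 in Mirc11-/- libraries, and Dlst, a subunit of the oxoglutarate dehydrogenase complex, had a log2 fold change of 0.13 (SE 0.12). Of 22 electron and adenine nucleotide carriers and partners 14 were positive (median 0.02), with Etfdh at 0.18 (SE 0.09) and Atpif1, an inhibitor of the ATP synthase, at 0.28 (SE 0.15). Of 38 further assembly factors 29 were positive (median 0.07), Cox17, a copper chaperone for complex IV, at 0.29 (SE 0.16) and Coa5 at 0.16 (SE 0.09).

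The regulators of mitochondrial biogenesis were not lowest in library 3 of both genotypes. Their 14 genes had medians of -0.03, 0.04 and -0.03 in the Wildtype and 0.05, 0.09 and 0.07 in the Mirc11-/- libraries, and 10 of 14 log2 fold changes were positive (median 0.05). Pprc1, a coactivator of the PGC-1 family, was at 1605, 1736 and 1617 normalized counts in the Wildtype and 2052, 2048 and 1838 in the Mirc11-/- libraries, which did not overlap. Its log2 fold change of 0.26 (SE 0.08) had an unadjusted p of 0.0114 and an adjusted p of 0.481 in limma. For Tfb2m, a mitochondrial transcription factor whose groups also did not overlap, it was 0.23 (SE 0.13, adjusted p = 0.641). In these lists 0 of 14, 22, 38 and 14 genes had an adjusted p under 0.05 in limma, and at an unadjusted p under 0.05 the count was 1, Pprc1, where 4.15% of all genes were higher and 4.09% lower. All Mirc11-/- values lay above the Wildtype values in 0, 1, 3 and 2 of them, where 6.42% of all genes did so, and below them in 1 assembly factor, where 6.53% did. Of the 13 subunits encoded by the mitochondrial genome, 0 were found by symbol in the gene table, so they were not analysed here.

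Erythroid markers were highest in the same libraries, and their part in the values above was not tested. All 30 had a positive log2 fold change (median 0.93), where 50.5% of all genes did, and 12 were higher at an unadjusted p under 0.05, where 4.15% of all genes were, with 0 called after adjustment in limma, with summed levels of 29450 to 41555 normalized counts in Wildtype and 31862 to 75439 in Mirc11-/- libraries. Their median deviations were 0.45, -0.10 and -0.33 in the Wildtype and 1.57, 1.36 and -0.14 in the Mirc11-/- libraries, so Mirc11-/- library 3 lay within the Wildtype range here too. None of the 30 was at 0 in any library, and 3 pairs of globin genes among them hold identical values. Hemgn, a nuclear protein of erythroid cells, was at 767, 664 and 605 in Wildtype and 1689, 1356 and 798 in Mirc11-/- libraries, which did not overlap. When the mean log2 level of these markers was added to the fit as a covariate, 18 of the 90 oxidative phosphorylation genes had a positive coefficient, their median was -0.10 in place of 0.08, and 0 were called. The covariate itself went with genotype, at 9.04, 8.46 and 8.29 in the Wildtype and 10.4, 9.96 and 8.47 in the Mirc11-/- libraries. With 6 libraries this fit separates the 2 poorly, and no conclusion is drawn from its signs. In bulk RNA, a different share of cells of one type and a different amount of RNA per cell cannot be told apart.

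The 8 stem and progenitor markers, of which only Kit and Ly6a were used in the sort, ran against the same order. Of them, 6 had a negative log2 fold change (median -0.19), with summed levels of 39619 to 47146 in Wildtype and 26988 to 45637 in Mirc11-/- libraries, and their medians were lowest in Mirc11-/- library 1, at -0.52, and highest in Wildtype library 3, at 0.22. Flt3, a receptor of early progenitors, was at 9449, 9855 and 12040 and at 5614, 6643 and 10820, and Cd34 at 12410, 12883 and 13794 and at 7475, 9009 and 13380. Of lineage markers, Itgam was at 1540 to 1653 in Wildtype and 1263 to 1398 in Mirc11-/- libraries (limma adjusted p = 0.475). The remaining lists had positive log2 fold changes in 8 of 12 neutrophil, 6 of 8 mast cell and basophil, 7 of 8 megakaryocyte, 7 of 8 B cell, 2 of 6 T cell and 4 of 7 monocyte and macrophage markers, with medians of 0.09, 0.33, 0.32, 0.80, -0.09 and 0.00 and 0 called in each. They did not share one order of libraries. In Mirc11-/- libraries 1 to 3 the median deviations were 0.27, 0.73 and 0.57 for neutrophil, 0.69, 0.26 and -0.03 for mast cell and basophil, 0.08, 0.48 and 0.22 for megakaryocyte, -0.31, 1.48 and 1.36 for B cell, 0.26, -0.40 and 0.27 for T cell and 0.44, 0.07 and -0.57 for monocyte and macrophage markers. The log2 fold changes of the 2 genes with the smallest p in each were 1.64 and 1.32 for Mmp9 and Mmp8, proteases of neutrophils, 2.63 and 1.82 for Fcer1a and Prss34 of mast cells and basophils, and 0.50 and 0.47 for Vwf and Gp5 of megakaryocytes. They were 1.71 and 0.97 for Igll1 and Ms4a1 of B cells, -0.51 and 1.08 for Lck and Cd3d of T cells, and -0.73 and 0.70 for Cd68 and Ccr2 of monocytes and macrophages. Some of these genes are low: over the 6 libraries Fcer1a was at 0 to 35.0, Cd3d at 0 to 6.62 and Ms4a1 at 1.98 to 11.4 normalized counts. The neutrophil genes with the most counts, Mpo, Elane and Prtn3, had -0.09, -0.04 and -0.06. In the study's supplement Mmp9 and Mmp8 have negative log fold changes, the opposite sign. Of the other neutrophil and monocyte markers, Lcn2 and Cd68 are also listed there, with the same sign as here (0.82 and -0.73).

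**Figure D5:**
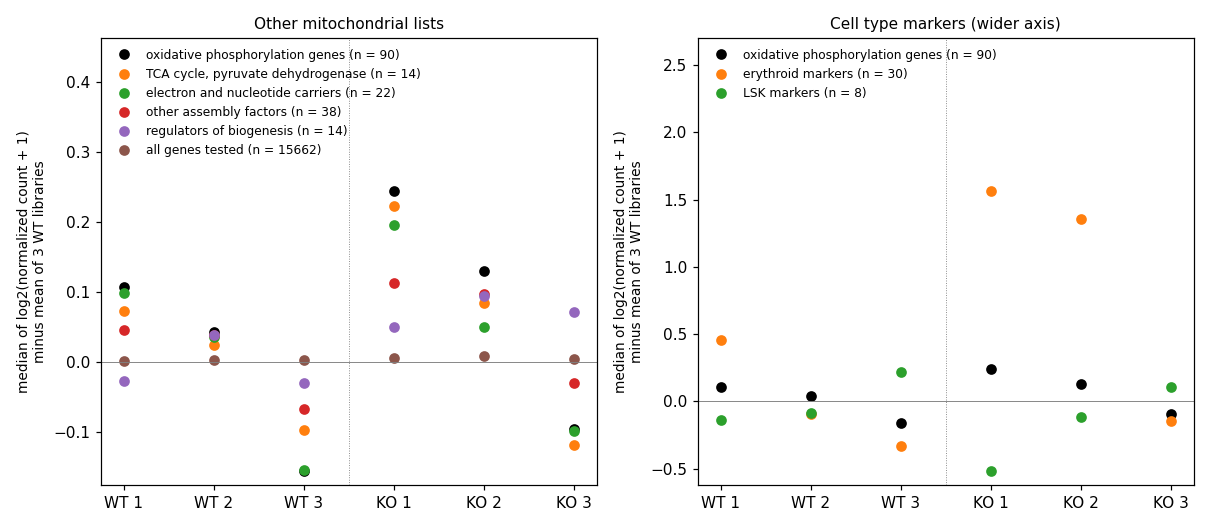
Median over each gene list of log2(normalized count + 1) minus the Wildtype mean (vertical axis), by library; WT is Wildtype and KO is Mirc11-/-. On the left, oxidative phosphorylation, citric acid cycle and carrier genes are lowest in WT 3 and KO 3 while regulators of biogenesis stay between -0.03 and 0.09; on the right, erythroid markers reach 1.57 in KO 1 where the stem and progenitor (LSK) markers are at -0.52.

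Transcript length moved with the libraries as well. The 90 genes are short, with a median transcript of 921 bases against 2927 over the 14159 genes with a length, and 75 of them are among the genes with transcripts of 138 to 1662 bases. The 2760 other genes of that length had median deviations of 0.06, 0.02 and -0.07 in the Wildtype and 0.03, 0.03 and -0.04 in the Mirc11-/- libraries. Library 3 was the lowest of both genotypes among them too, and the part of length in the result was not tested.

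What the genes share beyond their symbols was looked for in their promoters. RefSeq promoters on GRCm38.p6, from 250 bases before to 50 bases after each start, matched 74 of the 90 genes with 80 windows. The factors NRF1, GABPA and YY1 are known to bind promoters of nuclear genes for respiratory subunits, and the letters searched on both strands were GCGCATGCG for NRF1, CCGGAAGT for the ETS factor GABPA and AAGATGGC for YY1. The NRF1 letters stood in 12.5% of the windows against 3.20% of 15046 windows of all genes tested and 1.75% of all 32851 promoters. The YY1 letters stood in 15.0% against 3.95% and 2.75%, the ETS letters in 6.25% against 7.14% and 3.89%, and TATAAA in 7.5% against 7.97% and 13.6%.

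The NRF1 letters are nearly a palindrome and often matched on both strands at 1 base of offset. The windows below show them in capitals, with flanks in lower case, 5′ to 3′ on the strand of the gene, for 4 genes of different complexes; they are shown because the same core recurs at different distances from the start, with its first base at -60 in Ndufa11, 31 in Uqcrc1, -162 in Cox6a1 and -50 in Atp5k.
Ndufa11, chr17:56717690-56717722, plus strand: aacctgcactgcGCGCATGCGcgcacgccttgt
Uqcrc1, chr9:108936666-108936697, plus strand: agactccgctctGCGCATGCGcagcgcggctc
Cox6a1, chr5:115349100-115349132, minus strand: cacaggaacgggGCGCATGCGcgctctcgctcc
Atp5k, chr5:108434429-108434461, minus strand: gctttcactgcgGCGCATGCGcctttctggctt

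The YY1 letters had a fixed place by comparison. In 9 of 11 genes they began 23 to 39 bases after a RefSeq start, in 10 of 11 they read in the direction of the gene, and they contain the bases ATG. Capitals mark them below for 5 genes, shown because they recur at nearly the same distance: the first base is at 23 in Ndufa3 and Ndufc1, 25 in Ndufs7, 30 in Ndufa9 and 24 in Atp5j2.
Ndufa3, chr7:3617383-3617414, plus strand: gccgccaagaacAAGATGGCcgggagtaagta
Ndufc1, chr3:51408914-51408945, minus strand: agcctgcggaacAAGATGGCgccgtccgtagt
Ndufs7, chr10:80249461-80249492, plus strand: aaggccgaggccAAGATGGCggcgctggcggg
Ndufa9, chr6:126849096-126849127, minus strand: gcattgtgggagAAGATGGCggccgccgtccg
Atp5j2, chr5:145191499-145191530, minus strand: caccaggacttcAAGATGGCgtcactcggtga

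Uqcr11, the complex III gene with the smallest p, holds both ETS letters and, on the other strand, NRF1 letters, in capitals in its whole window at chr10:80406772-80407071, minus strand:
Uqcr11: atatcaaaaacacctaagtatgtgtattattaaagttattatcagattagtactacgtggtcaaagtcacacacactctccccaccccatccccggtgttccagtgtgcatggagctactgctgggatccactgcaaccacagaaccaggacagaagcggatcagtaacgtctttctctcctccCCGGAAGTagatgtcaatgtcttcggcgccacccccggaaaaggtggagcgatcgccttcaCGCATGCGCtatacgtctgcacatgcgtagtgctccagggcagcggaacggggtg
Genes with any of the 3 motifs and genes without them had median log2 fold changes of 0.09 (25 genes) and 0.07 (49 genes). The letters describe the windows only and no binding was measured.

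The miRNAs lost in Mirc11-/- cells act by pairing of their seed, bases 2 to 8, with sites in 3′ untranslated regions. Their mature sequences from RefSeq (GRCm38.p6) are given with the seed in capitals, because miR-23a-3p and miR-27a-3p share the first 5 bases of it.
miR-23a-3p, chr8:84208563-84208583, plus strand: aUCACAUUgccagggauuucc
miR-27a-3p, chr8:84208727-84208747, plus strand: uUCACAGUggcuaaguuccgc
miR-24-3p, chr8:84208875-84208896, plus strand: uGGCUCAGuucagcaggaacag

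Few of the oxidative phosphorylation genes hold such a site. In the GENCODE M21 transcripts (GRCm38), 15 of 90 had a match of 7 or 8 bases to any of the 3 seeds (16.7%), against 37.1% of 13988 genes tested with an annotated 3′ untranslated region, and their 3′ untranslated regions are short, with a median of 182 bases against 965.5. Sites for miR-23a-3p were in 4 genes, for miR-27a-3p in 6 and for miR-24-3p in 7. The 15 genes had a median log2 fold change of 0.04, and 11 of 15 were positive, against 71 of all 90. Of the 10 genes with a match of 8 bases, 8 were positive, with a median of 0.04. Some of these sites are shown with the match in capitals, chosen because they lie in genes described above.
Sdha, miR-27a-3p, chr13:74322337-74322362, minus strand: tacttctcACTGTGAAtgtaactagt
Uqcrfs1, miR-23a-3p, chr13:30540580-30540605, minus strand: caaacattAATGTGAAgtaattgaat
Cox7a2l, miR-24-3p, chr17:83502378-83502403, minus strand: aaatgtcaCTGAGCCAtcactgagct
Atp5sl, miR-27a-3p, chr7:25625440-25625465, plus strand: tcctatcaACTGTGAttgatcctggc
The log2 fold changes of these genes, in the same order, were 0.05 (SE 0.09), 0.04 (SE 0.13), -0.02 (SE 0.09) and -0.23 (SE 0.10), and none was called by limma after adjustment.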

How the data were processed

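RNA of sorted LSK cells was sequenced. Per the labels, STAR and Cufflinks were among the tools and mm10 was the build. The study's methods state default settings and DE-seq, and a supplementary method names a human build instead, which the mouse symbols of the table do not bear out. The deposited table, although named for FPKM, holds a signal: its values are whole read counts multiplied by 1 constant for each library, as the authors scaled them. All values were whole multiples of 1 read within 0.001, and those reads entered the count tests. Rows with the same symbol were summed.

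Every gene averaging 1 or more was tested with limma 3.58.1 (R 4.3.3; trend, log2(value + 1), two-sided, Benjamini-Hochberg over 15662 genes, threshold 0.05); edgeR 4.0.16 quasi-likelihood and DESeq2 1.42.0 were alternatives, with other pseudocounts, filters, scalings, variance models, a replicate block, an erythroid covariate and each library left out. The fits were tested on simulated data. The libraries held 15029379 to 17051541 reads in genes. Replicates are separate RNA pools, so p-values measure the spread between pools. No list was given a test of its own.

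Named genes were the 3 smallest p-values per complex and among related genes, core subunits, paralogs, genes within 5 Mb of Mirc11, rows under the minimum, the 2 smallest p-values of each other list, and the Mirc11 miRNA genes. Values of 3 genes that this rule names are not reported here. The members and lists were chosen with earlier results of these data known. Copies were found with BLAST 2.17.0 among GENCODE M21 transcripts.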

Additional observations from a re-analysis of the deposited data

How the results depend on the processing

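No gene of the 90 was called under any alternative but the array quality weights, which called 22 of them (20 higher, 2 lower) beside 2868 higher and 2809 lower of all genes, with weights of 0.254 to 23.9 of which Mirc11-/- library 2 had the highest. Over all genes limma called 1 higher and 4 lower, DESeq2 38 and 87, and limma without Mirc11-/- library 3 303 and 228. With the erythroid covariate 18 of 90 genes were positive, their median was -0.0984, 8 were lower at an unadjusted p under 0.05, and these log2 fold changes took the other sign: Sdhc -0.029, Sdhd -0.097, Sdha -0.10, Uqcr11 -0.12, Uqcr10 -0.088, Uqcrb -0.065, Cox6a1 -0.12, Cox6c -0.051, Atp5g3 -0.024, Atp5j2 -0.049, Ndufv1 -0.073, Ndufs1 -0.13, Uqcrc1 -0.14, Uqcrfs1 -0.20, Cyc1 -0.21, Cox4i1 -0.12, Cox5a -0.22, Atp5a1 -0.089, Atp5b -0.17, Cox4i2 0.012, Cox6a2 0.27, Cox6b1 -0.12, Cox7a1 0.28, Cox7a2 -0.15, Cox7a2l 0.12, Cox8a -0.21, Atp5g1 -0.14 and Ndufa4l2 0.39. Array weights turned Sdhb (0.034), Cox7a1 (0.26) and Cox8a (-0.031), and edgeR (5e-04) and DESeq2 (0.0017) turned Sdhb, whose value in limma was near 0. Leaving out each library in turn gave 48 to 81 positive genes and medians of 0.0076 to 0.1757, and the log2 fold change ran from -0.018 to 0.14 for Sdha, -0.091 to 0.11 for Sdhb, -0.049 to 0.17 for Uqcrfs1, -0.0022 to 0.28 for Cyc1, -0.0015 to 0.19 for Cox4i1, -0.077 to 0.14 for Cox5a, -0.0064 to 0.17 for Atp5a1, -0.046 to 0.20 for Atp5b, -0.65 to 0.024 for Cox4i2, -0.30 to 0.18 for Cox6a2, -0.46 to 0.18 for Cox7a1, -0.10 to 0.021 for Cox7a2l, -0.11 to 0.11 for Cox8a, -0.023 to 0.30 for Atp5g1, -0.072 to 0.036 for Atp5g2, -0.12 to 0.043 for Ndufa4 and -0.78 to 0.46 for Ndufa4l2. The cause was not tested. No share over all genes was counted for the unadjusted p-values of these alternatives or of the replicate block. The erythroid covariate was itself higher in Mirc11-/- libraries 1 and 2 than in each Wildtype library, so that fit separates it poorly from genotype.

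The deviations of same-numbered libraries correlated at 0.0664, -0.0632 and 0.0969 across genes, and those of differently numbered libraries at -0.1325 to 0.0741. With 3 libraries a genotype, these values cannot show whether replicate numbers pair the samples. Library 3 of both genotypes was below the remaining 4 libraries in 66 of the 90 genes, where 15.8% of all genes had it so. With the replicate block 0 of 90 genes were called, before adjustment 9 higher and 1 lower gene of the 90 had p under 0.05, and the calls over all genes were 3 higher and 27 lower. Pseudocounts, filters, scalings and the fit without a trend left 71 of the genes positive. With 3 pools a genotype, differences of 1.5-fold and more could be missed, and not only in the genes with the lowest counts. The 95% interval reached a 1.5-fold rise in 6 of the 90 genes, Uqcr11 and Cox6b2 among them. These intervals are not adjusted for the number of genes, and the adjusted threshold is stricter. Mir24-2, at 0 reads in every Mirc11-/- library, had an adjusted p of 0.185 in limma.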
